A study of Mus musculus with 22 samples.

Results

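The rows described here are those whose first V name is IGHV1S22 in tables of rearranged immunoglobulin heavy chain (Igh) sequences from mouse kidney B cells. They number 476 of 17178 rows and form 430 clonotypes, a clonotype being one junction (the CDR3 with its conserved flanking residues) on one V and one J segment. The name was picked because its share of rows was lower in extravascular libraries, so that contrast is described here with no test. The sequences under the name did not have the form of one complete V segment, and the rows are therefore called IGHV1S22 rows after their rule.

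The mice were WT C57BL/6 females of 8 to 10 weeks of age, given PBS (6 mice) or uropathogenic Escherichia coli, UPEC (5 mice), into the bladder. At day 56 kidney B cells were sorted as extravascular (CD45IV-) or intravascular (CD45IV+) by an antibody given into the blood before death, which gave 22 libraries, 2 per mouse. Libraries held 244 to 2134 rows, each row being a sequence seen in at least 2 reads. The tables hold Igh sequences alone, so the sorted cells were not checked against other B cell markers.

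An Igh variable domain is built by joining a V, a D and a J segment, with bases added without a template at both joins. The V segment supplies framework regions FR1 to FR3 with CDR1 and CDR2, and the join itself forms CDR3. Ighv1 is the large J558 family of the mouse, whose members are close in sequence, so a short stretch of one member can be shared by many.

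The sequences below show what the rows held of their V segment. Capitals in the lines above the Ighv1-55 line mark the bases that end the V region and match GRCm38 exactly. The Ighv1-55 line is itself GRCm38 sequence, and its capitals mark the stretch shared with the IGHV1S22 lines above it. Capitals in the fifth mark the bases at the start that match a different family.
IGHV1S22, commonest V region (201 rows): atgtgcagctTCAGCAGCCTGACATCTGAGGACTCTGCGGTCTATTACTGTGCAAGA
IGHV1S22, shorter start (161 rows): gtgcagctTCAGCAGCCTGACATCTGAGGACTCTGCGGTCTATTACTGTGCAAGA
IGHV1-48 as first of 6 names (93 rows): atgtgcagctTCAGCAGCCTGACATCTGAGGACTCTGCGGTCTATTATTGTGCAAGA
Ighv1-55, GRCm38 chr12:115208095-115208151, minus strand: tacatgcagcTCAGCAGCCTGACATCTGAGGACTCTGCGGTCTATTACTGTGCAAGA
IGHV1S22, commonest V region, start in capitals: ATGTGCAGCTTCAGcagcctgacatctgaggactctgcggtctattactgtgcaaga

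Every one of the 476 rows carried only the end of FR3. Their V regions were 49 to 57 nt long (median 55 nt), lacked 237 to 241 nt at the 5′ side, and held neither CDR1 nor CDR2 in 476 of 476 rows. Other Ighv1 names had a median V region of 275 nt, with 20.0% of 1697 rows under 100 nt and 75.4% at full length, taken here as 250 nt or more. In the other V families the median was 276 nt and 3.13% of rows were under 100 nt. No IGHV1S22 row was of full length.

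**Figure D1:**
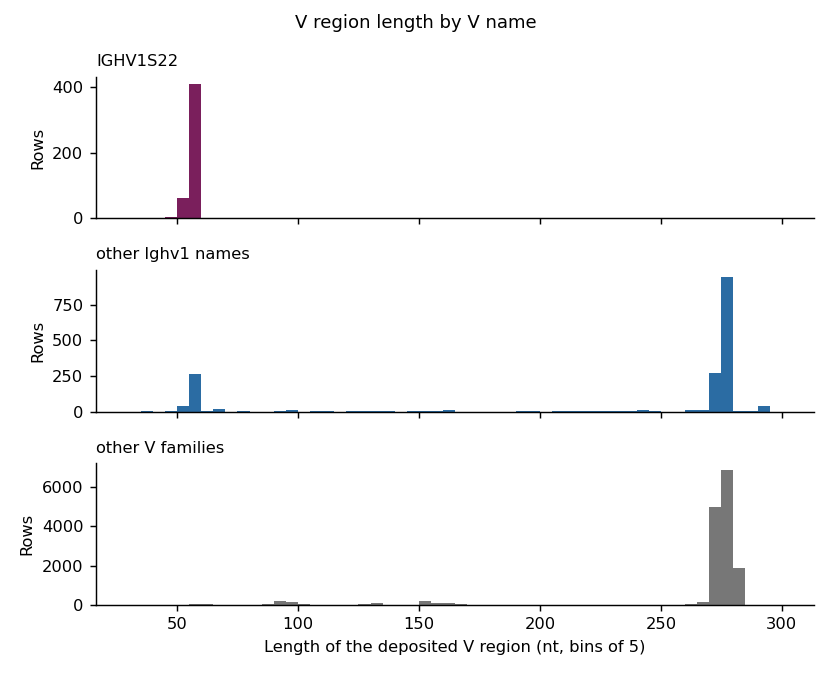
Number of rows (vertical axis) by length of the deposited V region in nt (horizontal axis, bins of 5 nt) for IGHV1S22, other Ighv1 names and other V families, all 22 libraries together. The IGHV1S22 rows lie between 49 and 57 nt, and most rows of the other names lie near their medians of 275 and 276 nt.

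The last 47 nt of the commonest form were identical in 8 germline segments of GRCm38, namely Ighv1-50, Ighv1-52, Ighv1-55, Ighv1-59, Ighv1-61, Ighv1-62-3, Ighv1-64 and Ighv1-69. All 8 matches lie in exons on the minus strand of chromosome 12, the Igh locus. With the base at position 10 (counted from 1 at the 5′ end) left out, the match reached 53 nt in 7 of them. The first 14 nt matched exons of Ighv3-1, Ighv3-2, Ighv3-3 and Ighv3-5, and no Ighv gene matched past that point. The GENCODE vM21 annotation of chromosome 12 held 185 Ighv genes, 93 of them Ighv1, and none named Ighv1s22. Thus the sequence in these rows did not single out a germline segment. The libraries were amplified with a mix of V primers, which was not compared with the opening, and where the opening comes from was not tested. A share of IGHV1S22 rows is therefore a share of fragments with this opening, and not the usage of one germline segment.

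FR3 bases hardly varied among the rows. In 469 of 476 rows they equalled the commonest form over their own length, and 7 rows (1.47%) had a different base. The opening came in 2 main lengths, with an FR3 of 51 nt in 250 rows and of 49 nt in 204 rows. Over 10 mice, clonotypes with the longer opening (51 nt) made up 42.6% ± 13.7 (SD, n = 10) in the extravascular and 58.9% ± 14.0 in the intravascular libraries, and were lower in 8 of 10 mice. This comparison was chosen after its values were seen, and it missed the threshold once adjusted over 18 tests (exact signed-rank p = 0.0371, adjusted p = 0.0954).

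The same opening also stood under other names. A block of 16 nt across the opening was found in 475 of the 476 rows and in 791 rows under any name (4.60% of all rows), but in 0 of 15892 rows with a V region of 100 nt or more. IGHV1-48 was the most frequent other name, and all 208 of its rows held the block and listed IGHV1S22 among 6 possible names. The block also stood in 36 rows named IGHV1-58, 27 named IGHV1-75, 18 named IGHV14-1 and 12 named IGHV1-63. The IGHV1S22 rows themselves were not ambiguous, with 1 V name in 476 of 476. A further 217 rows listed IGHV1S22 but not first, led by IGHV1-48 in 208 rows, IGHV1-54 in 5, IGHV1-66 in 3 and IGHV1-17-1 in 1. The IGHV1-48 form differs from the commonest IGHV1S22 form near its end and matched Ighv1-53, Ighv1-62 and Ighv1-72 instead.

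In row share, IGHV1S22 was lower in the extravascular library in 10 of 11 mice, as 23.5% of the 17 V names with enough rows were in at least 10. In the extravascular and intravascular libraries respectively, PBS mouse 1 had 0.469% and 3.79%, mouse 2 had 1.40% and 2.24%, and mouse 3 had 1.11% and 8.63%. PBS mouse 4 had 0.899% and 5.25%, mouse 5 had 7.20% and 6.10%, and mouse 6 had 1.22% and 6.22%. Mouse 5 was the exception, and its extravascular library lay above every other extravascular library. The means were 2.05% ± 2.54 (SD, n = 6) and 5.37% ± 2.20. Without clonotypes of 20 or more rows the extravascular mean was 4.41%. The difference, extravascular minus intravascular, was then -1.61 points, and the share was lower in 4 of 6 PBS mice. In 11 of 17 V segments with enough rows (64.7%) the extravascular share was lower in at least 5 of 6 PBS mice, IGHV1S22 included, and nothing is read from that count, since the name was picked on this contrast.

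In UPEC mice the values were 0% and 7.80% in mouse 1, 1.46% and 6.34% in mouse 2, 0.817% and 7.76% in mouse 3, 2.56% and 2.99% in mouse 4, and 1.99% and 4.24% in mouse 5. The share was lower in the extravascular library of all 5 mice, and the 2 compartments did not overlap, as for 11.8% of the 17 V names. The means were 1.36% ± 1.00 (SD, n = 5) and 5.83% ± 2.15. The extravascular library of UPEC mouse 1 held 0 of 244 rows, which allows a share of up to 1.23%. These limits cover counting error alone. In sorted bulk libraries, fewer cells with a given V segment and less Igh RNA per cell cannot be told apart.

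Counting each clonotype once took the difference from -3.32 to -2.22 points in PBS mice and from -4.46 to -4.41 in UPEC mice. In PBS mice IGHV1S22 made up 5.52% ± 3.71 of extravascular and 7.74% ± 3.59 of intravascular clonotypes (SD, n = 6), lower in 4 of 6 mice. The share went the other way in PBS mouse 2 (5.35% and 2.65%) and PBS mouse 5 (12.8% and 8.08%). In UPEC mice it was 3.70% ± 2.42 and 8.12% ± 2.31 (SD, n = 5), lower in 4 of 5. By reads the share was 3.31% ± 5.55 and 4.59% ± 3.91 in PBS mice (SD, n = 6), lower in 5 of 6, and 1.18% ± 1.04 and 4.08% ± 1.60 in UPEC mice (SD, n = 5), lower in 5 of 5. Single PBS mice moved these means, a check added after seeing the data. Without PBS mouse 5 the extravascular means were 1.02% by row, 4.06% by clonotype and 1.06% by read, and the differences, extravascular minus intravascular, were -4.21, -3.61 and -3.75 points against -3.32, -2.22 and -1.28 with all 6. By clonotype the difference was -1.47 points without mouse 3 and -0.978 without mouse 6, and by read it was -0.828 without mouse 4 and turned to 0.677 without mouse 3.

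**Figure D2:**
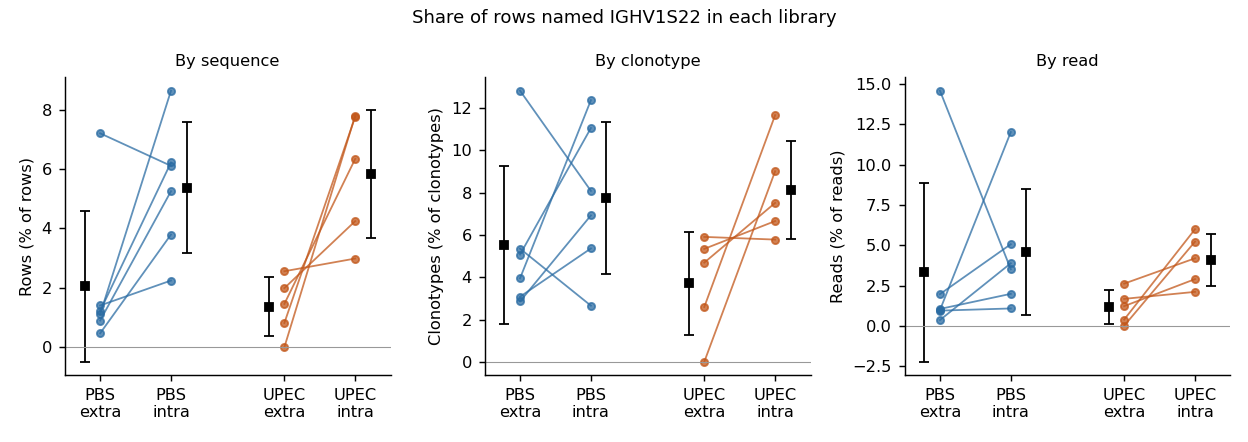
Share of IGHV1S22 in each library by row, by clonotype and by read (vertical axes, %), with a line joining the extravascular (extra) and intravascular (intra) library of each mouse and black squares with bars for the mean ± SD, which may reach below 0 (PBS n = 6, UPEC n = 5). By row, 10 of 11 lines rise from left to right, and PBS mouse 5 falls from 7.20% to 6.10%.

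UPEC and PBS mice had overlapping shares in both compartments. The intravascular mean was 0.451 percentage points higher in UPEC mice (exact Mann-Whitney U test, two-sided, p = 0.662), and the extravascular difference, UPEC minus PBS, was -0.686 points (exact p = 0.931). Across the 17 V segments the Benjamini-Hochberg adjusted p of IGHV1S22 was 0.866 and 0.931. By this test 0 of 17 segments (0.0%) passed the threshold in either compartment, and 0 had an unadjusted p under 0.05. With 6 and 5 mice the smallest p the test can give is 0.00433. A lone segment at that p would not pass the threshold after adjustment over 17 segments.

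Segments that carry the same 47 nt could be followed at full length, where the V name rests on the whole segment. Full-length rows of the 8 segments made up 2.19% ± 1.22 of extravascular and 2.29% ± 1.37 of intravascular rows in PBS mice (SD, n = 6), and 8.15% ± 9.47 and 1.59% ± 1.14 in UPEC mice (SD, n = 5). They were higher in the extravascular library in 7 of 11 mice, and in 9 of 11 when each clonotype was counted once. In UPEC mouse 1, where no IGHV1S22 row was found, they made up 24.2% of the extravascular library of 244 rows, and without it the UPEC extravascular mean was 4.15% ± 3.53 (SD, n = 4). The PBS difference turned from -0.105 points to 0.734 without PBS mouse 1 and to 0.0488 without PBS mouse 2. It was -0.315 without PBS mouse 3, -0.539 without mouse 4, -0.426 without mouse 5 and -0.129 without mouse 6. All rows with the opening block averaged 3.31% extravascular and 8.55% intravascular in PBS mice, and 2.63% and 9.28% in UPEC mice. The lower value was extravascular in 11 of 11 mice by row. With each clonotype counted once the block averaged 9.50% and 12.5% in PBS mice and 7.19% and 13.3% in UPEC mice. It was then lower in the extravascular library in 8 of 11 mice and higher in 3. Of the 791 block rows 475 were named IGHV1S22, and block rows under other names were lower in 10 of 11 mice. The block rows and the full-length rows are not matched sets. The block includes 208 IGHV1-48 rows, whose commonest form matched none of the 8 segments. A CDR3 of 39 nt or more stood in 786 of the 791 block rows, and the full-length rows were not cut on CDR3 length. Short rows (under 100 nt) with another start averaged 2.14% and 3.66% in PBS mice and 4.00% and 3.28% in UPEC mice. These values are descriptions of the contrast on which the name was picked, and their cause was not tested.

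**Figure D3:**
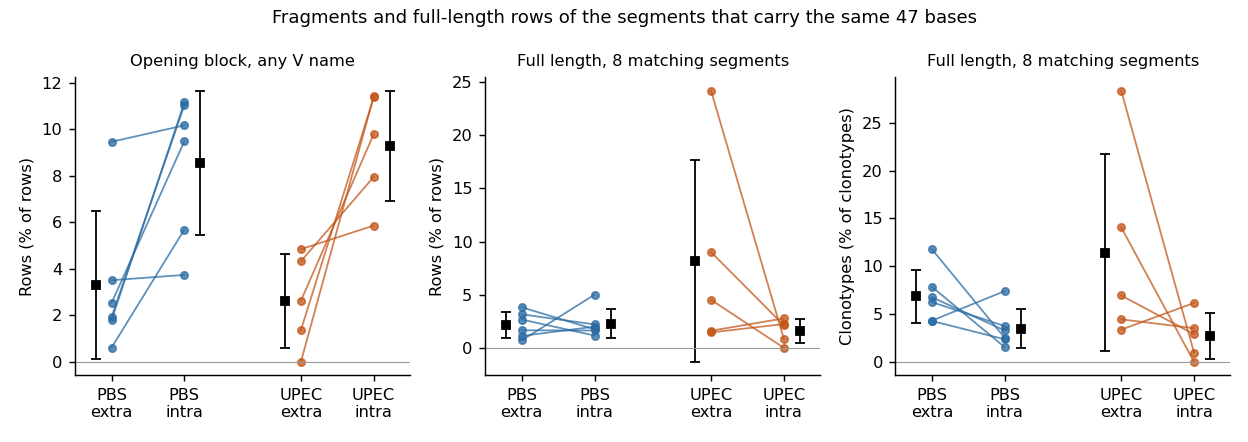
Share of rows with the opening block under any V name (left), and of full-length rows and clonotypes of the 8 germline segments with the same 47 nt (middle, right), in % of each library. Lines join the libraries of a mouse and black squares show mean ± SD (PBS n = 6, UPEC n = 5). The block rows and the full-length rows are not matched in germline segment or CDR3 length. By row the block was lower in the extravascular library in 11 of 11 mice, and the full-length rows were higher there in 7 of 11. Counted by clonotype the block was lower there in 8 of 11 mice and higher in 3.

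Junctions linked some fragments to full-length sequences. Of 430 IGHV1S22 junctions, 23 (5.35%) also stood on a full-length row of the same library, 19 of 151 extravascular and 4 of 279 intravascular. For 22 of these the full-length V name was an Ighv1 segment, with Ighv1-55 in 8, Ighv1-50 in 4, Ighv1-52 and Ighv1-59 in 3 each, Ighv1-61 and Ighv1-69 in 2 each and Ighv1-64 in 1 (1 junction had both Ighv1-55 and Ighv1-50). Every one of these 7 names is among the 8 that share the 47 nt. Of full-length Ighv1 rows, the 8 made up 158 of 532 in PBS extravascular and 70 of 198 in PBS intravascular libraries. In UPEC mice they made up 195 of 376 and 50 of 174. The remaining junction stood on Ighv3-8 rows in the extravascular library of PBS mouse 5. No junction recurred in a different library. The compartments were not equally open to a match, since full-length Ighv1 rows numbered 908 extravascular and 372 intravascular. The rate of such matches for other V names was not computed, so nothing is read from the difference between compartments.

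Most IGHV1S22 clonotypes were small as counted under this V name. A single row made up 406 of 430 (94.4%), 22 had 2 rows, and 2 had 3 or more. Rows with the same junction under another V name are not in these sizes, and 26 of the 430 junctions had such rows in their library. A junction on 1 IGHV1S22 row stood on 83 other rows in the extravascular library of PBS mouse 5. Another stood on 33 other rows in that of PBS mouse 3. Among full-length Ighv1 clonotypes 864 of 915 (94.4%) had a single row. None of the 430 was found in more than 1 library, against 91 of 6158 other clonotypes. By group, single-row clonotypes were 92 of 99 in PBS extravascular, 132 of 143 in PBS intravascular, 49 of 52 in UPEC extravascular and 133 of 136 in UPEC intravascular libraries. The junctions of the 2 largest are shown because they are the only ones with 3 or more rows.
PBS mouse 5, extravascular: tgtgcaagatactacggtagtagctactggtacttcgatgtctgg
PBS mouse 3, intravascular: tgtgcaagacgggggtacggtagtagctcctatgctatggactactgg

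The first of these joined Ighd1-1 to Ighj1 with an insert of 0 nt, the insert being the bases between V and D plus those between D and J. It held 21 rows and 694 reads, which was 38.9% of the IGHV1S22 rows of its library, and the same junction stood there on full-length IGHV1-50 rows. The second joined Ighd1-1 to Ighj4 with an insert of 7 nt and held 5 rows and 208 reads.

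Between compartments CDR3 length could be compared only above a shared lower edge of length, described below, at which 35.1% of the clonotypes lay. Mean CDR3 length was 42.6 nt ± 0.442 in extravascular and 43.0 nt ± 0.854 in intravascular libraries (SD, n = 10 mice with at least 3 IGHV1S22 clonotypes in both, exact signed-rank p = 0.193). The insert was 8.66 nt ± 1.44 and 8.92 nt ± 0.524 (exact p = 0.275). Reads per row averaged 2.24 and 1.65 on the log2 scale, higher in the extravascular library of 7 of 10 mice (exact p = 0.0645, adjusted p = 0.135). Full-length Ighv1 rows averaged 1.48 and 1.31, higher in 10 of 11 mice. UPEC mouse 1 had no extravascular IGHV1S22 row and gave no value. Over all clonotypes of a group the median CDR3 was 42 nt in each of the 4 groups, and the median insert was 8 nt in 3 groups and 9 nt in UPEC intravascular libraries. Inserts of 0 nt were seen in 7 of 99 PBS extravascular, 0 of 143 PBS intravascular, 0 of 52 UPEC extravascular and 1 of 136 UPEC intravascular clonotypes, counts given with no test. In the same order, full-length Ighv1 clonotypes with a D segment had such inserts in 5.08%, 4.21%, 2.87% and 1.89%, and those with a CDR3 of at least 39 nt in 3.26%, 0%, 0% and 0%, where IGHV1S22 had 7.07%, 0%, 0% and 0.735%.

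The IGHV1S22 rows were held to a narrow range of lengths, which bears on every comparison of CDR3. V-D-J sequences had a lower edge at 122 nt, with 7 of 17178 rows under it, and 85 IGHV1S22 rows lay exactly at 122 nt and 236 of 476 between 122 and 125 nt. Of the 476 rows, 472 had a CDR3 of 39 nt or more and 176 stood at 39 nt, whereas 70.2% of full-length Ighv1 rows had a shorter CDR3. With V regions of 49 to 57 nt and this edge, a longer CDR3 than in full-length rows was fixed beforehand, so CDR3 length and the insert, which is part of it, are set against other Ighv1 clonotypes as descriptions with no test.

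In the intravascular libraries CDR3 length was 43.0 nt ± 0.810 in IGHV1S22 clonotypes and 36.9 nt ± 1.59 in other Ighv1 clonotypes (SD, n = 11), and the insert was 9.06 nt ± 0.666 and 7.26 nt ± 0.584. The other Ighv1 set was itself part fragments, with the opening block in 170 of its 568 intravascular rows (29.9%). Full-length Ighv1 clonotypes had a CDR3 of 33.9 nt ± 1.49 and an insert of 6.28 nt ± 0.852, so that the differences became 9.14 and 2.77 nt. Against full-length Ighv1 clonotypes with a CDR3 of at least 39 nt, a set chosen after seeing the data and cut on CDR3 length itself, they were 0.705 and 0.578 nt.

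**Figure D4:**
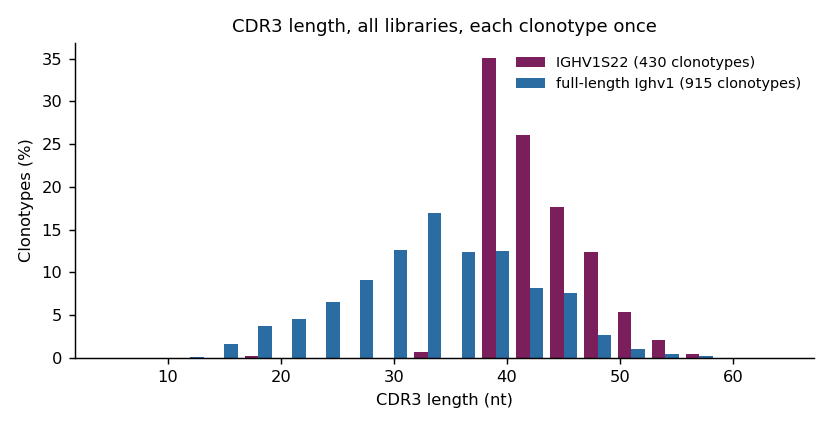
CDR3 length in nt (horizontal axis) of IGHV1S22 and full-length Ighv1 clonotypes as % of the clonotypes of each set (vertical axis), all libraries together with each clonotype once. IGHV1S22 begins in number at 39 nt with 35.1% of its 430 clonotypes, and full-length Ighv1 peaks at 33 nt with 16.9% of its 915.

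J usage differed from that of other Ighv1 clonotypes, but not detectably from that of all other V segments or of long-CDR3 Ighv1, for Ighj1 and Ighj2. The test against other Ighv1 clonotypes sets rows held to the length edge against a set largely of full-length rows. J usage and the length edge cannot be told apart in it. IGHV1S22 clonotypes used Ighj1 in 23.6% ± 15.3 against 13.7% ± 3.78 of other Ighv1 clonotypes (SD, n = 11 intravascular libraries, exact p = 0.00293, adjusted p = 0.0132), higher in 10 of 11. Without PBS mouse 2, at 66.7% against 18.5% on 9 IGHV1S22 clonotypes, the Ighj1 difference of 9.91 points became 6.08 (exact p = 0.00586). Ighj2 was lower, at 28.9% ± 8.21 against 37.6% ± 6.63 (exact p = 0.00488, adjusted p = 0.0176), in 9 of 11. Ighj3 was at 14.0% against 19.0% (exact p = 0.0674) and Ighj4 at 33.4% against 29.6% (exact p = 0.432). Against full-length Ighv1 the differences were 12.6 points for Ighj1 and -14.8 for Ighj2 (exact p = 0.000977 each). Both calls were lost against all other V segments, at 1.48 points for Ighj1 (higher in 5 of 11, exact p = 0.520) and -1.94 for Ighj2 (lower in 6 of 11, exact p = 0.577). Against full-length Ighv1 with a CDR3 of at least 39 nt the Ighj1 difference was 5.29 points (exact p = 0.413) and the Ighj2 difference was 1.07 points, above rather than below the comparison set (exact p = 0.941). In PBS mice alone Ighj1 differed by 12.6 points (exact p = 0.0938) and Ighj2 by -7.59 (exact p = 0.0625). In UPEC mice alone the differences were 6.73 and -10.0 points, where 5 pairs can give no p below 0.0625. In extravascular libraries the Ighj1 call was lost (9.84 points, higher in 7 of 10, exact p = 0.0645).

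Ighd1 was the leading D family, in 227 of 430 clonotypes (52.8%), against 39.7% of full-length and 55.6% of long-CDR3 full-length Ighv1 clonotypes, nearly all of it Ighd1-1 with 224. Ighd2 followed with 161 clonotypes (37.4%), Ighd3 with 30 and Ighd4 with 7. In the intravascular libraries Ighd1 stood at 53.2% against 45.4% of other Ighv1 clonotypes (exact p = 0.147), Ighd2 at 38.3% against 37.7% (exact p = 0.831) and Ighd3 at 5.54% against 7.45% (exact p = 0.638). Ighd4 stood at 1.57% against 7.27% of other Ighv1 clonotypes (exact p = 0.0195, adjusted p = 0.0586, past the threshold only unadjusted), and at a difference of 0.609 points against long-CDR3 full-length clonotypes (exact p = 0.875). D families were compared after their values had been seen. The adjusted values include the tests of CDR3 and insert against other Ighv1, whose outcome the length edge fixed. Over the remaining 16 tests the adjusted p was 0.0234 for Ighj1, 0.0260 for Ighj2, 0.0156 for the Ighd field described next, 0.0781 for Ighd4 and 0.119 for the longer opening. The J and D tests among these also set rows held to the length edge against a set largely of full-length rows. Segment usage and the edge cannot be told apart in them. Over all libraries, long-CDR3 full-length Ighv1 clonotypes used Ighj1 in 22.6% and Ighj2 in 28.3%, where IGHV1S22 had 23.0% and 27.2%.

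The isotype fields set IGHV1S22 rows apart from full-length Ighv1 rows. Mature naive B cells make IgM and IgD from one transcript by splicing the same V-D-J to either constant region. Reads of 474 of 476 IGHV1S22 rows stood in the field taken as Ighm. Those of 2 rows, both intravascular, stood in the field taken as Ighd. Any other field held 0 of 476 rows, which allows a share of up to 0.630% in each. The Igha field held 17.3% of full-length Ighv1 rows (24.0% extravascular, 1.08% intravascular) and 1.77% of all rows. It held 0 of 316 block rows under another name and 1 of 495 short rows with another start. The order of the field names after the first is inferred. In intravascular libraries the Ighd field held 0.536% ± 1.22 of IGHV1S22 rows against 23.9% ± 10.3 of other Ighv1 rows (SD, n = 11, exact p = 0.000977, adjusted p = 0.00586), lower in 11 of 11.

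The gap was smaller against all other V segments, at 16.2% ± 4.76 (exact p = 0.000977, n = 11). Over rows of any V name, 14.3% of intravascular and 5.07% of extravascular rows stood in the Ighd field. Full-length Ighv1 rows had 35.8% ± 12.3 of rows in the Ighd field (exact p = 0.000977, n = 11). Those with a CDR3 of at least 39 nt had 42.0% ± 11.8 (exact p = 0.000977, n = 11), and in extravascular libraries 27.0% ± 10.4 against 0% of IGHV1S22 rows (exact p = 0.00195, n = 10). Of 180 extravascular IGHV1S22 rows 0 were in the Ighd field, which allows a share of up to 1.67%. Rows with the opening block under another name had 0 of 316 (up to 0.949%), and short rows with another start had 16 of 495 (3.23%). These shares under other names are given with no test, and the cause of the low Ighd share was not tested.

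**Figure D5:**
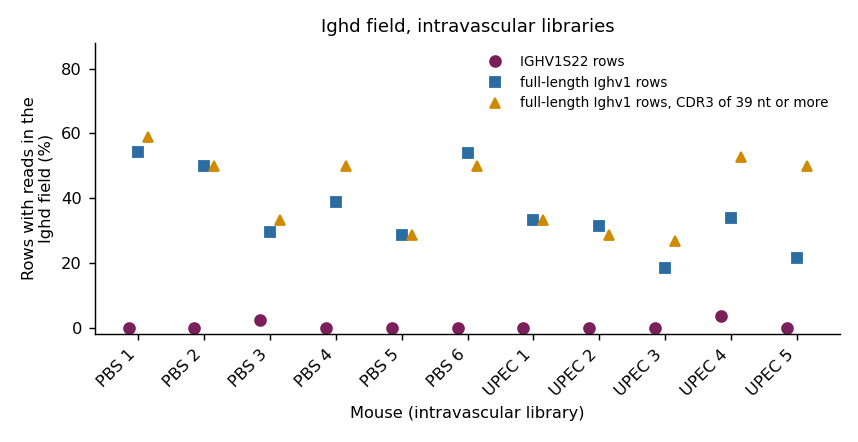
Rows with reads in the Ighd field (vertical axis, % of rows) in the intravascular library of each mouse for IGHV1S22, full-length Ighv1, and full-length Ighv1 with a CDR3 of 39 nt or more. IGHV1S22 stands at 0% in 9 of 11 libraries and at 2.33% and 3.57% in PBS mouse 3 and UPEC mouse 4, below both comparison sets in every library.

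The V names whose row share was most like that of IGHV1S22 over the 22 libraries were IGHV1-48 (Spearman's rho 0.87), IGHV15-2 (0.59) and IGHV3-6 (0.56), given as a description, since libraries of a mouse are not independent. The first consists of fragments with the same block, as above. Of the 3 other Ighv1 names with enough rows, IGHV1-48 had a lower extravascular share in 10 of 11 mice, IGHV1-58, with the block in 15.4% of its rows, also in 10 of 11, and IGHV1-53, with the block in none, in 5 of 11.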

How the data were processed

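The authors filtered MiSeq reads by quality, merged read pairs, required consensus among reads with the same barcode, trimmed primers and constant regions, dropped sequences supported by 1 read, and named segments with IMGT/V-QUEST. Other than counts or levels, the deposited tables hold sequences, lengths and V, D and J names in 119 columns per library, and the authors wrote reads per isotype into each identifier, which breaks off after Igha, so the order of the other 8 of 9 fields is inferred as alphabetical. No value is normalized.

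Rows, clonotypes, CDR3 lengths and inserts were computed with Python 3.11.15, numpy 2.4.6, pandas 2.3.3 and scipy 1.17.1. Germline matches used GRCm38 and GENCODE vM21. Compartments were paired by mouse, since both libraries come from one animal, with exact two-sided signed-rank tests, and treatments compared with exact Mann-Whitney U tests. The threshold was 0.05, with Benjamini-Hochberg adjustment over 18 tests or 17 V segments (at least 10 rows in at least 3 PBS libraries). Tests were tried on simulated data. Named segments were those sharing a V field with IGHV1S22, the 3 most like it in share, the related Ighv1 names and the nearest germline segments. Members and lists were chosen with earlier results of these data known. Alternatives covered weighting, V name choice, read minimum, denominator, comparison set, pairing, treatment and each mouse left out. Depth was 936 to 18956 reads per library. The multiplex primer list was not analysed here.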

Additional observations from a re-analysis of the deposited data

Results flagged for a closer look

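Within-group outliers were sought in 28 groups of values, of which chance would flag 1.4 at 1 in 20, and 6 were found. Of these, 5 were in the extravascular library of PBS mouse 5, set against the next highest PBS extravascular library. Its IGHV1S22 share was 7.20% of rows (next 1.40%), 12.8% of clonotypes (next 5.35%) and 14.6% of reads (next 1.96%). The opening block made up 9.47% of its rows (next 3.51%), and it had 1.74 rows per IGHV1S22 clonotype (next 1.17). One clonotype held 21 of its 54 IGHV1S22 rows. The sixth was the intravascular library of PBS mouse 3, where IGHV1S22 took 12.02% of reads (next 5.06%). The cause was not tested.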

How the results depend on the processing

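Of 390 values under alternatives, 310 counted as unchanged. For tested results this means the same direction and side of the threshold. The compartment shares had no test, and gave 13 of the 310 in PBS and 12 in UPEC mice. For them it means the same direction and a move smaller than the SD of the main difference. As a share of Ighv1 rows the difference between compartments was -15.7 points in PBS and -23.0 in UPEC mice. Without clonotypes of 20 or more rows it went from -3.32 to -1.61 points of all rows in PBS mice (extravascular mean 4.41%, lower in 4 of 6) and was -3.67 in UPEC mice. With rows of at least 3 reads it was -2.82 (lower in 4 of 6) and -3.83 (4 of 5). The treatment difference turned to -0.507 points in intravascular libraries when weighted by reads, and with a mouse left out ran from -0.175 to 1.16 there and from -1.003 to 0.343 in extravascular libraries. Leaving out PBS mouse 2, UPEC mouse 1 or UPEC mouse 3 turned the former, and PBS mouse 5 the latter. The insert difference between compartments was 0.0158 nt in PBS mice alone. Reads per row between compartments passed the threshold with each clonotype counted once (0.66 on the log2 scale) and ran from 0.40 to 0.69 with a mouse left out, passing without PBS mouse 4 or UPEC mouse 3.

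Against other Ighv1 rows, UPEC mice alone gave 5.99 nt in CDR3, 1.99 nt in insert and -16.9 points in the Ighd field (5 mice cannot pass the threshold). The length edge fixes the direction of the CDR3 values against full-length rows. Against long-CDR3 full-length rows, themselves cut on CDR3 length, CDR3 and insert differed by 0.705 and 0.578 nt (0.0781 and 0.117 nt in extravascular libraries). Against rows with the same block under another name they differed by -0.514 and -0.130 nt, and the Ighd field by 0.536 points. For Ighj1 and Ighj2 the calls were lost against all other V segments, long-CDR3 rows and in either treatment alone. For Ighj1 the differences were 1.48 points against all other V segments, 12.6 in PBS mice, 6.73 in UPEC mice, 5.29 against long-CDR3 rows, -1.45 against these in extravascular libraries, 6.20 against the block and 9.84 in extravascular libraries, the call being lost in the last 2 as well, and 6.08 to 11.1 with a mouse left out. For Ighj2, in that order but the last, they were -1.94, -7.59, -10.0, 1.07, -1.09 and 6.33, the last past the threshold in the other direction (exact p = 0.0488), and -13.1 in extravascular libraries (exact p = 0.0488). Ighj3 gave -8.32 against all other V segments and -8.25 in extravascular libraries, both past the threshold, 1.69 against long-CDR3 rows and -5.95 to -3.87 with a mouse left out, passing without PBS mouse 6 or UPEC mouse 1, 4 or 5. Ighj4 gave 8.78 against all other V segments and 11.5 in extravascular libraries, both past the threshold, -8.05 against long-CDR3 rows and -9.51 against the block.

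D families, compared after their values were seen, turned, gained or lost calls as follows. Ighd1 gave -1.45 points in UPEC mice, and passed at 15.5 in PBS mice, 17.5 against all other V segments, 11.3 in extravascular libraries and without UPEC mouse 2 or 4. Ighd2 gave -3.97 against all other V segments, -6.46 in PBS mice, -0.00186 against full-length rows, -4.41 against long-CDR3 rows (-1.70 in extravascular libraries), -3.27 in extravascular libraries and -1.12 to 2.98 with a mouse left out, turning without UPEC mouse 1, 2, 4 or 5. Ighd3 passed at -4.52 against all other V segments and gave 2.51 against long-CDR3 rows (3.31 in extravascular libraries), 0.460 against the block and 0.270 in extravascular libraries. Ighd4 gave 0.609 against long-CDR3 rows, and its unadjusted call was lost with the direction kept under 4 other alternatives. The causes were not tested. The longer opening differed by -19.8 points in PBS mice, by -11.1 in UPEC mice (4 pairs, which cannot pass) and by -19.5 to -12.7 with a mouse left out, and lost its unadjusted call in PBS mice alone and without any one of PBS mice 1, 2, 3 and 6 and UPEC mice 2 and 5.

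PBS and UPEC mice share only a number. With mouse number as a replicate block the treatment difference was 0.620 points in intravascular (exact p = 0.812) and -0.853 in extravascular libraries, over 5 pairs, which can give no p below 0.0625. Without the pairing by mouse, reads per row differed by 0.59 on the log2 scale and passed the threshold (exact p = 0.00893), and no other call changed. Depth limits the extravascular shares, which rest on 0 to 54 rows per library.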
